A study of Macaca mulatta with 136 samples.

Results

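The rod phototransduction genes PDE6A, PDE6B, CNGA1, CNGB1, SAG, GNGT1 and SLC24A1 were followed through the retina and the RPE/choroid of the rhesus macaque eye. Members are the entries that carry these symbols. These are 7 of the 19422 genes in the data, each carried by a single entry (PDE6A ENSMMUG00000004752, PDE6B ENSMMUG00000003282, CNGA1 ENSMMUG00000005764, CNGB1 ENSMMUG00000018340, SAG ENSMMUG00000023359, GNGT1 ENSMMUG00000020579, SLC24A1 ENSMMUG00000022059), and all 7 passed the filter on low counts in both tissues. RNA came from 2 mm punches of postmortem eyes of 2 adult rhesus monkeys, RM03 and RM04, with the right (OD) and the left (OS) eye of each. Punches were taken at the fovea/macula (called fovea here), the perimacula, the nasal retina and the temporal periphery, and microdissection parted the neural retina of each punch from its RPE/choroid, which is the retinal pigment epithelium together with the vascular layer behind it. This gave 32 poly-A libraries, with 4 eyes in each of 8 groups. The 4 eyes came from 2 animals and are not 4 independent animals. The p-values of single genes rest on the spread between these eyes after the difference between the monkeys was removed. Those of ratios between genes rest on a spread that still holds this difference.

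Rods are the photoreceptors of dim light. They are nearly absent from the centre of the primate fovea, where cones are packed, and they outnumber cones elsewhere. In a rod, light activates rhodopsin, which activates the G protein transducin, and transducin switches on a phosphodiesterase that breaks down cyclic GMP. Cation channels held open by cyclic GMP then close, and the cell hyperpolarizes. GNGT1 is the gamma subunit of rod transducin. PDE6A and PDE6B are the catalytic subunits of the rod phosphodiesterase, CNGA1 and CNGB1 are the subunits of the rod channel, SLC24A1 is the exchanger that removes calcium from the rod outer segment, and SAG is the arrestin that ends the activity of the light receptor. Cones use related proteins for the same steps. These are bulk samples, in which fewer rods, less RNA per rod and more RNA from other cells cannot be told apart.

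The libraries held between 42448891 and 78574034 estimated counts. Libraries of the fovea, perimacula and nasal location ran on 5 lanes from 2 flow cells. Those of the periphery ran on 2 lanes of a further flow cell, and the effects of that flow cell and of the location cannot be told apart. In the 12 retina libraries sequenced on both flow cells, GNGT1 was higher on the same flow cell in 12 of 12 libraries, by 0.18 to 0.41 on the log2 scale. PDE6B was lower on it in all but 1 library, with a median of -0.14, and the medians of the other 5 genes lay between -0.06 and 0.01. The inner retinal neuron and pigment epithelium markers matched the labels, apart from TRPM1. In retina, the summed level of 9 neuron markers without TRPM1 was 661 to 1243 CPM against 5.10 to 49.4 CPM in RPE/choroid, and that of 4 pigment epithelium markers was 114 to 988 CPM in retina against 2015 to 16743 CPM in RPE/choroid. TRPM1 was left out after its level in RPE/choroid was seen, since its mean there was above that in retina at all 4 locations.

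All 7 rod genes were lowest at the fovea of the retina. Values are in CPM, the estimated counts of a gene scaled to a common library total. Eyes are given in the order RM03 OD, RM03 OS, RM04 OD, RM04 OS. CPM values are not divided by gene length, so levels are compared within a gene and not between genes.

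GNGT1 stood at 359, 361, 281 and 290.0 CPM at the fovea, and its perimacular values were 1441, 1313, 1095 and 826 CPM. The nasal values were 1478, 1308, 1154 and 1313 CPM, and the peripheral values were 2837, 3552, 2188 and 2184 CPM. No foveal value reached any perimacular value, and no nasal value reached any peripheral value. PDE6A stood at 1065, 1252, 893 and 925 CPM at the fovea, 3957, 3917, 3515 and 2375 CPM in the perimacula, 4317, 4257, 3372 and 3713 CPM at the nasal location, and 4547, 5361, 3350 and 3733 CPM at the periphery. Its 3 outer locations overlapped with each other and none overlapped with the fovea. PDE6B stood at 236, 280, 246 and 239 CPM at the fovea, 885, 985, 1104 and 572 CPM in the perimacula, 1012, 1070, 1079 and 1054 CPM at the nasal location, and 1485, 1464, 1257 and 1559 CPM at the periphery. Unlike PDE6A, the peripheral values of PDE6B lay above all nasal values.

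CNGA1 stood at 201, 199, 155 and 175 CPM at the fovea, 744, 684, 577 and 435 CPM in the perimacula, 777, 734, 584 and 629 CPM at the nasal location, and 959, 1113, 651 and 788 CPM at the periphery. CNGB1 stood at 261, 327, 427 and 422 CPM at the fovea, 771, 842, 1388 and 804 CPM in the perimacula, 858, 893, 1302 and 1341 CPM at the nasal location, and 1419, 1561, 1841 and 2008 CPM at the periphery. The channel subunits differed between the monkeys in opposite directions. CNGB1 was higher in RM04 than in RM03, by 0.53 on the log2 scale of the means at the fovea and 0.37 at the periphery, whereas CNGA1 was lower in RM04 by 0.28 and 0.53 (log2 -0.28 and -0.53). Other members differed too. At the fovea and the periphery, RM04 was lower for PDE6A (log2 -0.35 and -0.48), GNGT1 (-0.34 and -0.55) and PDE6B (-0.09 and -0.07). It was higher for SAG (0.18 and 0.15), and SLC24A1 was mixed (0.27 and -0.02). With 2 animals these differences were not tested.

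SLC24A1 stood at 350.3, 395, 433 and 468 CPM at the fovea, 1239, 1144, 1347 and 1082 CPM in the perimacula, 1317, 1249, 1431 and 1511 CPM at the nasal location, and 1314, 1449, 1278 and 1453 CPM at the periphery. The peripheral values of SLC24A1 lay within its nasal range. SAG stood at 1236, 1498, 1491 and 1608 CPM at the fovea, 4585, 4601, 6615 and 3908 CPM in the perimacula, 5384, 4703, 6695 and 6975 CPM at the nasal location, and 11130, 11793, 12558 and 12802 CPM at the periphery. Every peripheral value of SAG was above every value elsewhere. At the perimacula, RM04 OS had the lowest value of 6 of the 7 genes, all but CNGB1.

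**Figure D1:**
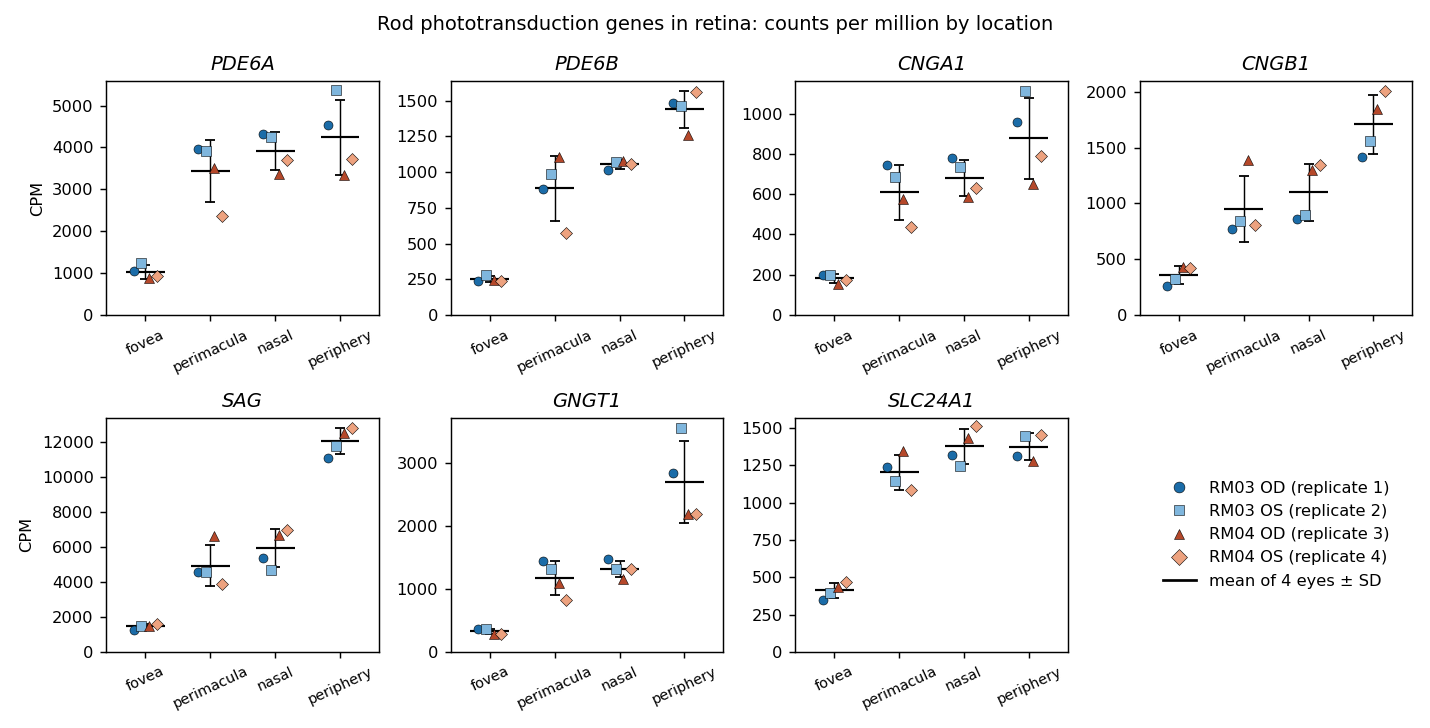
CPM of the 7 rod phototransduction genes in retina (vertical axes from 0, each with its own scale) at 4 locations (horizontal axes). Points are the 4 eyes, horizontal lines are means and bars are SD. The foveal points of every gene lie below all points of the other locations, and SAG and GNGT1 step up again between the nasal location and the periphery.

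The first comparison asked how far each gene rose from the fovea to the periphery of the retina. Differences were estimated with edgeR's quasi-likelihood test on TMM-normalized counts, after adjusting for the monkey, and p-values were adjusted by Benjamini-Hochberg over 15486 genes. A gene was called at an adjusted p under 0.05. All 7 genes were called and higher at the periphery, where 37.6% of all genes tested were called in that direction. The median log2 difference of the 7 was 2.21, against 0.06 over all genes tested. The rise was positive in 4 of 4 eyes for every gene.

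The rise was not equal. SAG, the arrestin, rose 7.99-fold (log2 2.997 ± 0.14, SE, n = 4 eyes a location, adjusted p = 4.82e-10) and GNGT1, the transducin subunit, rose 7.95-fold (log2 2.99 ± 0.12, adjusted p = 1.61e-10). PDE6B rose 5.55-fold (log2 2.47 ± 0.15, adjusted p = 2.63e-09) and PDE6A 3.93-fold (log2 1.98 ± 0.11, adjusted p = 1.34e-09). The channel subunits CNGB1 and CNGA1 rose 4.62-fold and 4.57-fold, with log2 differences of 2.21 ± 0.13 and 2.19 ± 0.10. SLC24A1 rose least, 3.23-fold (log2 1.69 ± 0.09). SAG and GNGT1 differed by less than their standard errors, as did CNGA1 and CNGB1.

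Markers of the pigment epithelium, which lies against the outer segments, rose in the same retina libraries. Their summed level was 124 to 217 CPM at the fovea, 114 to 209 CPM in the perimacula, 222 to 392 CPM at the nasal location and 490 to 988 CPM at the periphery. All 4 of 4 measured markers were called higher at the periphery, against 37.6% of all genes. They were led by TTR, a carrier of thyroid hormone and retinol (log2 3.22 ± 0.30), and BEST1, a chloride channel of the pigment epithelium (log2 2.82 ± 0.27). Their median log2 difference was 0.27 between the fovea and the perimacula and 1.97 between the fovea and the periphery. The part of the cells that carry these markers in the rod gene differences was not tested. SAG had in RPE/choroid a median of 0.558% of its level in the retina of the same eye over all locations. The median was 1.18% at the fovea (up to 10.0%, in RM04 OD) and 1.61% at the periphery (up to 3.69%, in RM03 OD).

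All 7 genes were also called between the fovea and the perimacula, higher at the perimacula, where 20% of all genes were called in that direction. The log2 differences ran from 1.38 ± 0.12 for CNGB1 to 1.81 ± 0.11 for GNGT1, with a median of 1.69, or 2.59-fold to 3.50-fold. Between the fovea and the nasal location the 7 genes were called as well (27.2% of all genes were called higher at the nasal location), with log2 differences from 1.57 ± 0.13 for CNGB1 to 2.04 ± 0.14 for PDE6B.

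**Figure D2:**
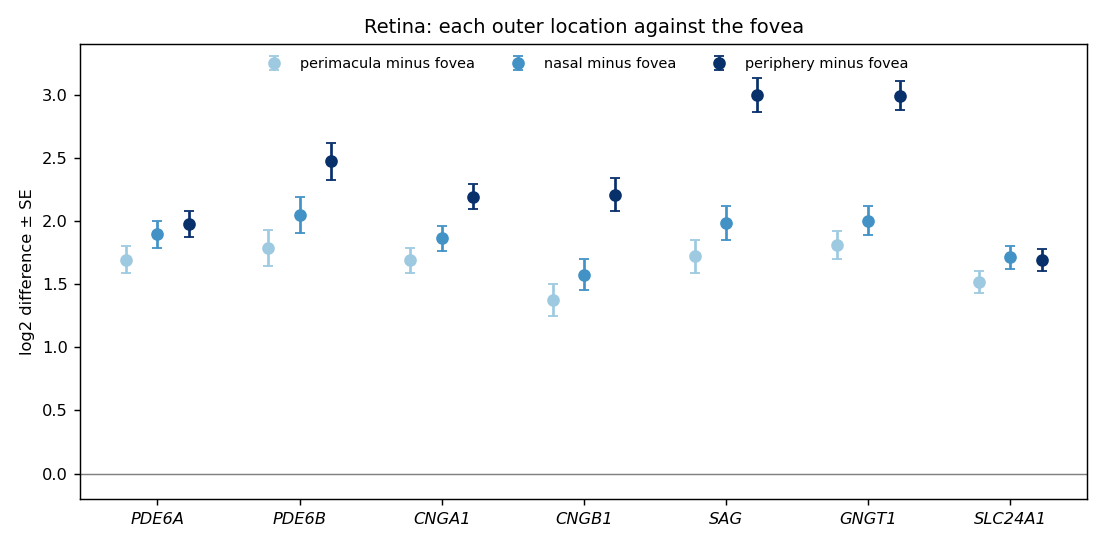
Log2 differences of the 7 genes between each outer location and the fovea in retina, with points for the edgeR estimates and bars for their standard errors. The 3 points of SLC24A1 and PDE6A lie close together, and the peripheral points of SAG (2.997) and GNGT1 (2.99) stand about 1 log2 unit above their nasal points.

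The perimacula and the nasal location were not distinguished by any of the 7 genes with edgeR. The differences were positive for all 7 and ran from 0.18 for CNGA1 to 0.26 for SAG, with adjusted p between 0.28 and 0.45. At an unadjusted p under 0.05, 1 gene passed, and DESeq2 called 0. In this comparison 1.05% of all genes were called higher at the nasal location.

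The genes parted between these middle locations and the periphery. From the nasal location to the periphery 5 of 7 were called higher, against 24.2% of all genes. SAG rose 2.02-fold (log2 1.01 ± 0.13, adjusted p = 1.96e-05) and GNGT1 1.98-fold (log2 0.99 ± 0.11, adjusted p = 5.47e-06), in 4 of 4 eyes each. No library ran both on the flow cell of the periphery and on another, so no difference of that flow cell was measured for either gene. CNGB1 rose 1.55-fold (log2 0.63 ± 0.12), PDE6B 1.34-fold (log2 0.43 ± 0.14, adjusted p = 0.019) and CNGA1 1.26-fold (log2 0.33 ± 0.10, adjusted p = 0.011). PDE6A had a log2 difference of 0.08 ± 0.10 (adjusted p = 0.53) and SLC24A1 of -0.02 ± 0.09 (adjusted p = 0.86). The calls for PDE6B and CNGA1 were lost without RM03 OS, which left 3 called, and that of PDE6B also without RM03 OD (adjusted p of PDE6B between 0.0013 and 0.095 over the alternatives, of CNGA1 between 0.0068 and 0.17). The call of CNGA1 was lost in 2 of 12 alternatives. Its highest adjusted p came from an alternative that left out no eye, since without an eye it reached 0.15 at most.

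From the perimacula to the periphery 6 of 7 were called higher, against 28.2% of all genes. SAG rose 2.42-fold, GNGT1 2.27-fold, CNGB1 1.78-fold, PDE6B 1.61-fold and CNGA1 1.42-fold. PDE6A rose 1.22-fold (log2 0.28 ± 0.10, adjusted p = 0.030), a call that was lost in 5 of 13 alternatives, among them without RM03 OS and without RM04 OS (adjusted p between 0.017 and 0.26 over the alternatives). SLC24A1 had a log2 difference of 0.17 ± 0.09 (adjusted p = 0.11).

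Ratios within a library compare genes without reference to its total. They do not cancel a flow cell difference that is particular to a gene, such as that seen for GNGT1. The periphery ran on a flow cell of its own, and its part in the peripheral ratios was not tested. The ratio of PDE6A to PDE6B, the paired subunits of the rod phosphodiesterase, was compared between the fovea and each other location with an exact two-sided permutation test (4 eyes against 4), as were 8 further ratios. This gave 27 tests with Benjamini-Hochberg adjustment, and the smallest p that 4 against 4 allows is 0.0286. Log2 PDE6A over PDE6B was 2.04 ± 0.15 (SD, n = 4) at the fovea and 1.54 ± 0.27 at the periphery. The difference of -0.50 was negative in 4 of 4 eyes and did not pass (exact p = 0.0571, adjusted 0.0701). Log2 CNGA1 over CNGB1 was -0.96 ± 0.50 at the fovea and -0.98 ± 0.52 at the periphery, a difference of -0.02 that was positive in 1 eye (exact p = 0.914). The same ratio was higher than at the fovea in 4 of 4 eyes at both other locations, by 0.33 ± 0.10 (SD over 4 eyes) at the perimacula (exact p = 0.371) and by 0.29 ± 0.11 at the nasal location (exact p = 0.457). These tests do not use the pairing of eyes and do not remove the difference between the monkeys. Exact sign-flip tests over the 4 paired eyes gave p = 0.125 for both, the smallest that 4 eyes allow. Between monkeys this ratio did not overlap. It lay between -0.71 and -0.05 in the 8 retina libraries of RM03 and between -1.501 and -0.89 in the 8 of RM04.

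Set against their cone relatives, the rod genes rose further. PDE6C is the cone phosphodiesterase, and CNGA3 and CNGB3 are the cone channel subunits. ARR3 is cone arrestin, GNGT2 is the cone transducin gamma subunit and SLC24A2 is an exchanger of cones. RNA of these genes from other cells was not told apart in these bulk samples. All 21 rod over cone ratios were higher outside the fovea in 4 of 4 eyes, each at the smallest exact p of 0.0286 (adjusted 0.0367). At the periphery, the ratio of GNGT1 to GNGT2 was 19.3 times that at the fovea (log2 difference 4.27 ± 0.20, SD over 4 eyes) and that of SLC24A1 to SLC24A2 was 16.2 times (4.02 ± 0.22). For PDE6B over PDE6C and CNGA1 over CNGA3 it was 13.1 times each, with log2 differences of 3.72 ± 0.11 and 3.71 ± 0.23.

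The remaining ratios rose less. PDE6A over PDE6C rose 9.31 times, CNGB1 over CNGB3 8.70 times and SAG over ARR3 7.70 times. SLC24A1 rose least of the rod genes by itself, while SLC24A2 fell from 188 ± 7.58 CPM at the fovea to 38.8 ± 1.71 CPM at the periphery (SD, n = 4). ARR3 was 851 ± 79.5 CPM at the fovea and 916 ± 61.8 CPM at the periphery (adjusted p = 0.65). CNGB3 also had a mean in RPE/choroid above that in retina at all 4 locations, by 1.58 to 2.85 on the log2 scale. The part of pigment epithelium or choroid RNA in its retina level was not tested.

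**Figure D3:**
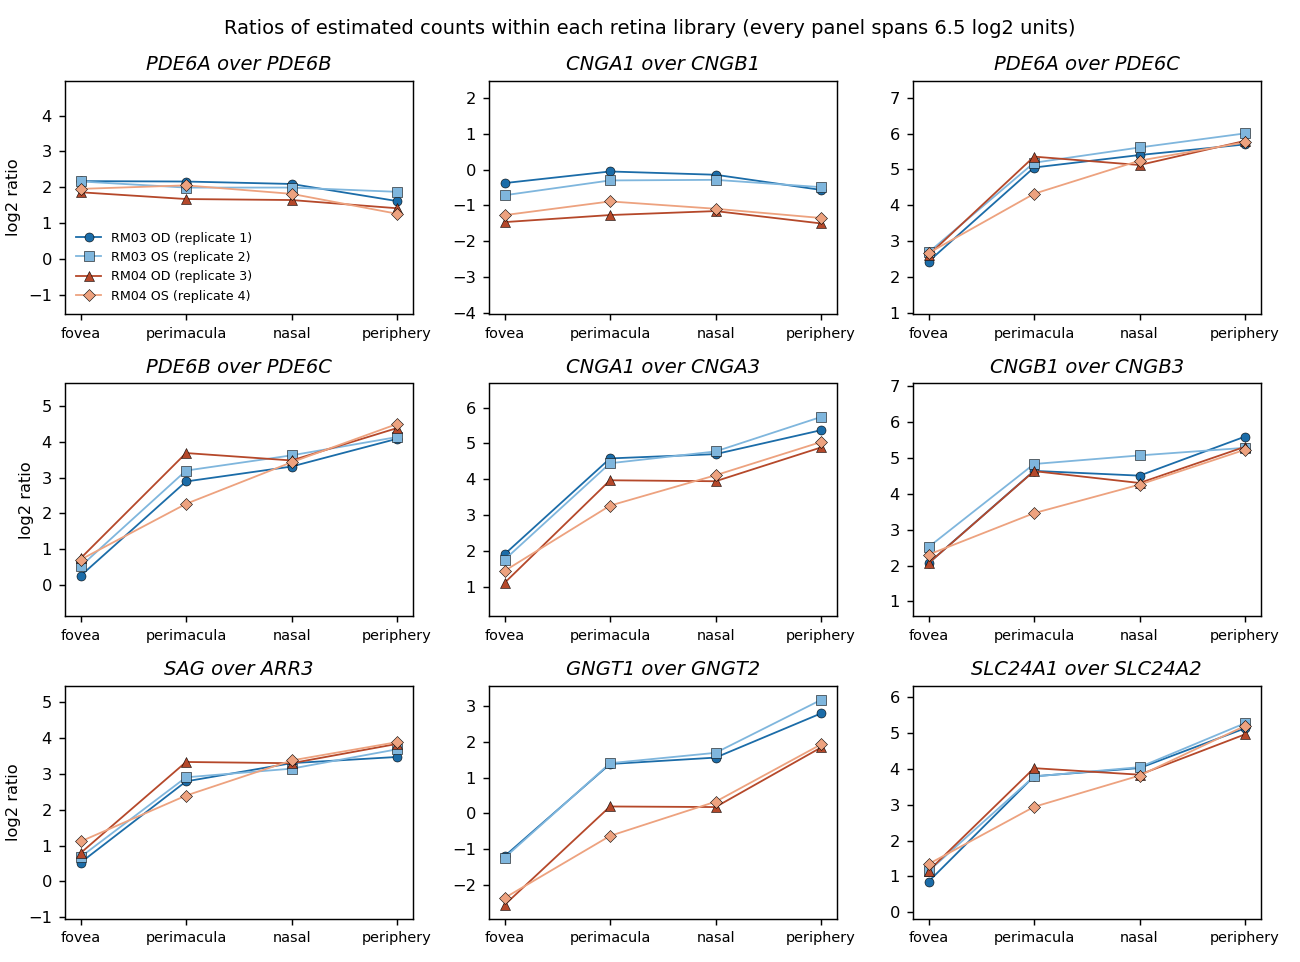
Log2 ratios of estimated counts within each retina library (vertical axes, every panel spanning 6.5 log2 units) at 4 locations, with 1 line per eye. The 7 rod over cone ratios lie above their foveal value at all 3 other locations in every eye and are highest at the periphery, the means of PDE6A over PDE6B and CNGA1 over CNGB1 move by at most 0.50 from the fovea, and CNGA1 over CNGB1 separates the 2 monkeys.

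The other genes of rod and cone signaling give the surroundings of these 7. In the fovea to periphery comparison of retina, 10 of 11 genes of shutoff and calcium feedback were called higher at the periphery, with a median log2 difference of 1.32. Of all genes, 37.6% were called higher there. The list of 11 also holds the beta subunit of rod transducin, which belongs to the activation step. GUCY2F, a guanylate cyclase of photoreceptors, rose by 2.23 ± 0.10 on the log2 scale and PDC, phosducin, which binds transducin subunits, by 2.09 ± 0.09. GNB5 rose by 0.48 ± 0.19, and RGS9BP, the anchor of the complex that turns transducin off, had a difference of 0.09 ± 0.98 (adjusted p = 0.94).

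Of 9 cone relatives, 8 were called lower at the periphery, with a median of -1.10, where 32% of all genes were called lower. SLC24A2 and CNGA3 had log2 differences of -2.33 ± 0.14 and -1.51 ± 0.09, and GNB3, the cone transducin beta subunit, of -0.40 ± 0.10. All 3 rod transcription factors were called higher at the periphery, against 37.6% of all genes. NR2E3 and NRL, which set rod identity, rose by 2.44 ± 0.30 and 2.06 ± 0.16, and CRX, which rods and cones share, by 0.51 ± 0.14.

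All 8 measured genes of outer segment structure were called higher at the periphery with a median of 1.04, from 0.29 ± 0.12 for RP1L1 and 0.51 ± 0.09 for IMPG2 to 1.499 ± 0.11 for EYS and 1.62 ± 0.10 for RP1. Of 5 genes of photoreceptor transport and chaperones, 4 rose and 1 fell. AIPL1, the chaperone of the phosphodiesterase, rose by 1.54 ± 0.12 and RP2 by 0.94 ± 0.06, ARL3 rose by 0.38 ± 0.07, and PDE6D, which carries prenylated proteins, had a difference of -0.12 ± 0.05. Of 10 inner retinal neuron markers, 2 were called higher (CABP5 at 0.81 ± 0.10 and TRPM1 at 0.43 ± 0.08, both of bipolar cells), 4 lower and 4 neither. These shares stand near those of all genes (37.6% higher and 32% lower) and say little about the markers as a group. The ganglion cell factor POU4F1 (-3.51 ± 0.35) and ONECUT1 of horizontal cells (-2.03 ± 0.28) were lowest. These lists were chosen with earlier results of these data known and give no independent evidence of direction. Their medians stand beside 2.21 for the 7 rod genes and 0.06 for all genes.

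The 10 genes whose log2 CPM followed the mean of the 7 rod genes most closely over the 16 retina libraries, among 8630 genes with a mean of at least 10 CPM, were RBBP8, KIF27, TMEM237, SSX2IP, CDR2, TDRD7, MTA2, FAM161A, UNC13B and WDR31. Their Pearson r ran from 0.995 for RBBP8 to 0.989 for WDR31. The 16 libraries come from 4 eyes and fall into a foveal group and an outer group, so these values describe the ranking only. Among the 7 rod genes themselves, the 21 pairwise r ran from 0.84 to 0.99 in retina, with a median of 0.95.

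In RPE/choroid all 7 rod genes were detected at a small share of their retina level. With all 32 libraries in a single fit, 7 of 7 were called higher in retina at each location, where 37%, 37.7%, 37.6% and 37.8% of 16382 genes tested were called in that direction at the fovea, perimacula, nasal location and periphery. At the perimacula the differences ran from 47.0-fold for SLC24A1 (log2 5.55 ± 0.44) to 342-fold for PDE6A (log2 8.42 ± 0.98). At the fovea they were smaller, from 9.08-fold for SLC24A1 (log2 3.18 ± 0.39) to 38.1-fold for PDE6A (log2 5.25 ± 0.86). Without the RM04 OD fovea library of RPE/choroid, which stood apart, all 7 foveal differences kept their call and were larger, from log2 3.62 for SLC24A1 to 7.21 for PDE6A. At the periphery they ran from 33.8-fold for SLC24A1 (log2 5.08 ± 0.43) to 65.0-fold for PDE6A (log2 6.02 ± 0.88), and from log2 5.62 for SLC24A1 to 6.60 for PDE6A without the periphery library of RM03 OD. Without that of RM04 OS they ran from log2 5.28 for SLC24A1 to 6.29 for PDE6A.

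Expressed as a percent of the retina of the same eye and location, PDE6A had a median of 0.445% over the 16 pairs, SAG 0.558%, GNGT1 0.534%, CNGA1 0.630% and PDE6B 0.934%. CNGB1 had a median of 1.54% and SLC24A1 of 3.16%. SLC24A1 was never below 0.869% and reached 18.2%, at the fovea of RM04 OD. At the nasal location SLC24A1 lay between 2.61% and 3.29% in the 4 eyes, when PDE6A lay between 0.0899% and 0.604% of the same retinas. The share of SLC24A1 was thus several times that of PDE6A in each of these eyes, a description of 4 eyes without a test.

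The RPE/choroid libraries did not form even groups. The summed level of the 7 genes was 446 CPM in the fovea library of RM04 OD, and 885 and 681 CPM in the periphery libraries of RM03 OD and RM04 OS. It was 44.6 to 204 CPM in the other 13. Where a result was refitted without any of these 3 libraries, the library left out is named.

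SAG showed this most clearly. It stood at 8.12, 6.93, 149.8 and 27.3 CPM at the fovea, 28.6, 7.35, 6.29 and 19.2 CPM in the perimacula, 7.88, 46.3, 26.4 and 28.2 CPM at the nasal location, and 410.3, 53.7, 99.5 and 312 CPM at the periphery of RPE/choroid. The lowest peripheral value was above every perimacular and nasal value, and the fovea library of RM04 OD was above the lower peripheral pair. PDE6A stood at 4.70, 3.82, 75.5 and 10.5 CPM at the fovea, 18.3, 4.32, 4.76 and 10.6 CPM in the perimacula, 3.88, 25.7, 9.24 and 16.4 CPM at the nasal location, and 126, 16.9, 22.9 and 97.6 CPM at the periphery.

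PDE6B, CNGA1 and GNGT1 had the same high libraries. PDE6B ranged from 1.58 to 25.6 CPM at the fovea, 2.60 to 9.17 CPM in the perimacula, 3.247 to 14.6 CPM at the nasal location and 10.1 to 78.5 CPM at the periphery. CNGA1 ranged from 0.432 to 15.5, 0.851 to 4.48, 0.780 to 8.39 and 4.40 to 38.4 CPM at these locations, and GNGT1 from 1.38 to 48.5, 1.63 to 7.70, 1.64 to 12.4 and 10.9 to 102 CPM. In all 3 the top value at the fovea was that of RM04 OD and the top value at the periphery that of RM03 OD.

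CNGB1 and SLC24A1 varied less. CNGB1 stood at 11.4, 10.4, 52.6 and 19.8 CPM at the fovea, 10.98, 7.94, 8.86 and 14.7 CPM in the perimacula, 10.1, 14.8, 15.7 and 14.6 CPM at the nasal location, and 60.8, 6.92, 20.97 and 60.2 CPM at the periphery. SLC24A1 stood at 25.98, 20.05, 78.6 and 45.4 CPM at the fovea, 17.2, 22.7, 23.2 and 37.5 CPM in the perimacula, 34.4, 41.1, 43.4 and 42.1 CPM at the nasal location, and 68.7, 12.6, 18.7 and 63.9 CPM at the periphery. For both genes the lowest value of all 16 libraries was the periphery of RM03 OS, below every foveal value. Pairwise Pearson r among the 7 genes over these 16 libraries ran from 0.53 to 0.99 with a median of 0.86. The 3 high libraries are among the 16.

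**Figure D4:**
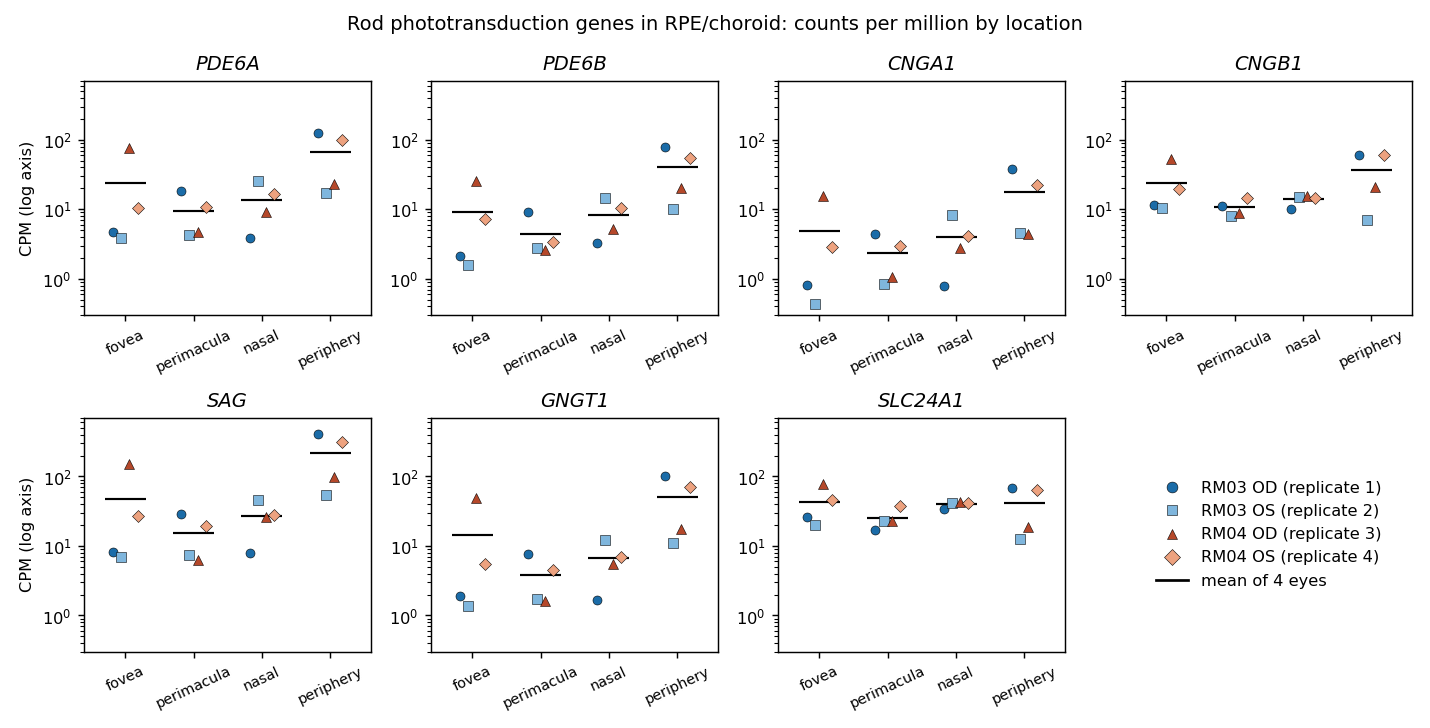
CPM of the 7 rod phototransduction genes in RPE/choroid on a logarithmic axis shared by all panels, at 4 locations. Points are the 4 eyes and lines their means. RM04 OD stands highest at the fovea, RM03 OD and RM04 OS are the upper pair at the periphery, and SLC24A1 stays within 12.6 to 78.6 CPM throughout.

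Between locations of RPE/choroid few rod genes were called. Comparing the fovea with the periphery, edgeR called 0 of 7, where 47.8% of 15789 genes were called in either direction and 24.8% were higher at the periphery. At an unadjusted p under 0.05, 2 passed, and DESeq2 called 2 (PDE6B and SAG). The log2 differences were 2.28 ± 1.02 for SAG, 2.10 ± 0.92 for PDE6B, 1.88 ± 1.14 for GNGT1, 1.84 ± 1.15 for CNGA1, 1.498 ± 1.02 for PDE6A, 0.65 ± 0.56 for CNGB1 and -0.07 ± 0.48 for SLC24A1, and each standard error was above the 0.09 to 0.15 of the same comparison in retina. The count changed when a library or an eye was left out. With an eye left out it ran from 0 to 5. The log2 difference then ran from 0.53 to 3.61 for PDE6A and from 1.27 to 4.24 for SAG. The fovea library of RM04 OD was picked because it stood high, so larger differences without it follow from that choice. Without the fovea library of RM04 OD, 5 of 7 were called higher at the periphery (PDE6A, PDE6B, CNGA1, SAG and GNGT1), with log2 differences from 3.26 for PDE6A to 4.01 for GNGT1, and SLC24A1 turned to 0.31 without being called.

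From the perimacula to the periphery 5 of 7 were called higher, against 19.3% of all genes. SAG had a log2 difference of 3.72 ± 1.02 (adjusted p = 0.0105), GNGT1 of 3.601 ± 1.14 (adjusted p = 0.023), PDE6B of 3.07 ± 0.91 (adjusted p = 0.016), PDE6A of 2.69 ± 1.00 (adjusted p = 0.047) and CNGB1 of 1.75 ± 0.57 (adjusted p = 0.026). CNGA1 at 2.83 ± 1.11 (adjusted p = 0.058) and SLC24A1 at 0.71 ± 0.47 (adjusted p = 0.26) were not called. No call remained without the periphery library of RM03 OD, and 3 remained without that of RM04 OS. With the eye as a block, 4 were called and PDE6A was lost (adjusted p = 0.067, between 0.017 and 0.23 over the alternatives). The call of PDE6A was lost in 8 of 15 alternatives and that of CNGB1 in 6 of 15 (adjusted p of CNGB1 between 0.011 and 0.18). Those of PDE6B, SAG and GNGT1 were lost in 2 of 15 each.

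From the nasal location to the periphery 1 of 7 was called, SAG (log2 2.88 ± 0.98, adjusted p = 0.029), where 22.8% of all genes were called higher at the periphery. That call was lost with the eye as a block (adjusted p = 0.088, between 0.0072 and 0.21 over the alternatives), and also without the periphery library of either RM03 OD or RM04 OS. With edgeR, none of the 7 was called between the fovea and the perimacula (0.139% of all genes called in either direction), the fovea and the nasal location (0.361%) or the perimacula and the nasal location (3.07%). In these 3 comparisons 0 passed at an unadjusted p under 0.05, and DESeq2 called 0.

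Other groups of genes moved with the high libraries, though not always together. In the fovea library of RM04 OD the 8 cone relatives other than CNGB3 summed to 183 CPM, against 40.9 to 59.3 CPM in the other foveal libraries, while the 9 inner retinal neuron markers other than TRPM1 summed to 6.75 CPM, within the 5.10 to 10.0 CPM of the others. In the periphery library of RM03 OD the cone relatives summed to 122 CPM and the neuron markers to 49.4 CPM, against 39.5 to 62.6 CPM and 11.3 to 24.2 CPM in the other 3 peripheral libraries. These 3 include that of RM04 OS, which was high in rod genes but not in these 2 sums. None of the cone relatives was at 0 in RPE/choroid at any location. Of the 10 neuron markers, ONECUT1, POU4F1 and SLC32A1 stayed below 1 CPM in every RPE/choroid library and were at 0 in some, and their mean levels in retina were also low, 2.49 to 27.2 CPM. The other 6 besides TRPM1 lay between 0.0491 and 18.2 CPM. Only 7 of the 10 neuron markers passed the filter on low counts in RPE/choroid, TRPM1 among them. A gene can pass this filter by its counts at a single location, so the calls describe only the markers that passed. Of these 7, 5 were called higher at the periphery than at the fovea (median log2 2.21), 4 than at the perimacula (1.61) and 4 than at the nasal location (1.61), where 24.8%, 19.3% and 22.8% of all genes were. CABP5 had log2 differences of 2.45 ± 0.63, 2.65 ± 0.63 and 1.90 ± 0.61. The part of neural retina left on the RPE/choroid punches in these values was not tested.

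The 4 pigment epithelium markers summed to 15298 and 16743 CPM in the periphery libraries of RM03 OD and RM04 OS, and to 2015 and 7989 CPM in those of RM03 OS and RM04 OD. The pair of peripheral libraries with more rod gene counts was therefore also the pair with more pigment epithelium counts. At the fovea the sum was 13319 CPM in RM04 OD and 13726 CPM in RM04 OS, of which only RM04 OD had high rod gene levels.

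**Figure D5:**
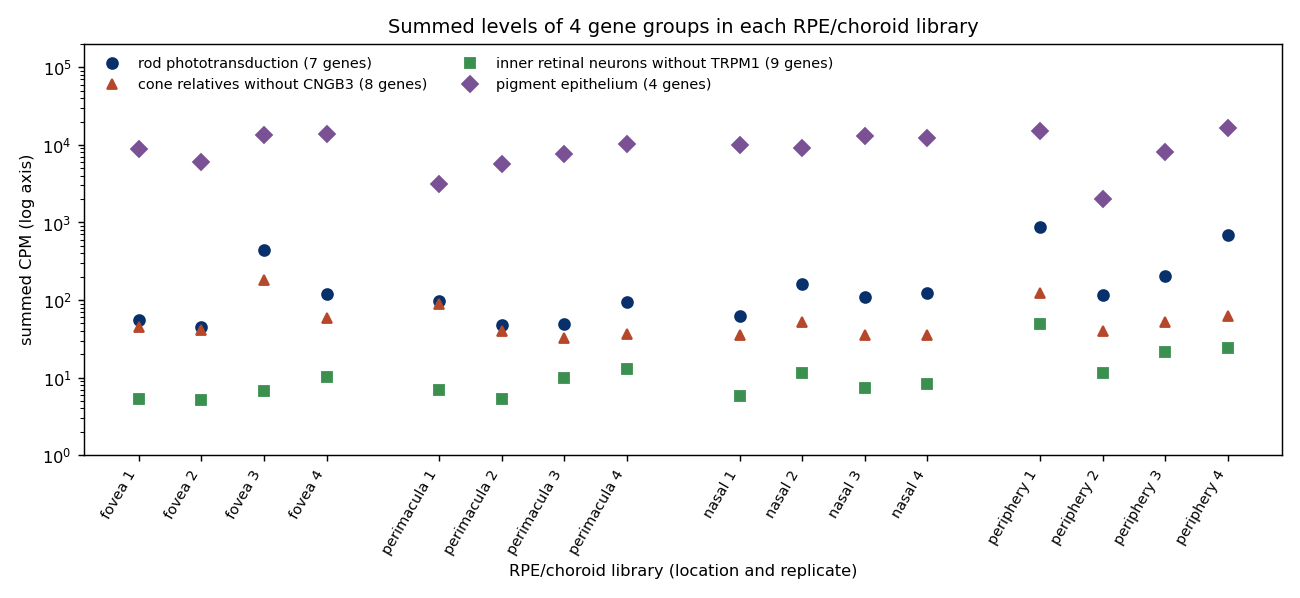
Summed CPM (logarithmic axis) of 4 gene groups in each RPE/choroid library, 4 libraries at each of 4 locations, labelled by location and replicate (1 is RM03 OD, 2 RM03 OS, 3 RM04 OD, 4 RM04 OS). The rod genes stand high at fovea 3, periphery 1 and periphery 4, the cone relatives rise with them at fovea 3 (183) and periphery 1 (122), and the neuron markers do not rise at fovea 3. At periphery 4 the cone relatives and the neuron markers stand below their points at periphery 1.

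The last comparison asked whether the change with location differed between the tissues, as the interaction of tissue and location. For the change from fovea to periphery 2 of 7 were called, both with a more positive change in retina, where 24.5% of all genes were called in that direction. SLC24A1 differed by 1.90 ± 0.51 on the log2 scale (adjusted p = 0.0039) and CNGB1 by 1.65 ± 0.59 (adjusted p = 0.025). The other 5 had differences of 0.52 to 1.45 with adjusted p between 0.31 and 0.67. Without the RPE/choroid fovea library of RM04 OD 1 was called, SLC24A1.

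For the change from fovea to perimacula 6 of 7 were called, against 8.14% of all genes with a more positive change in retina. The differences ran from 2.37 ± 0.52 for SLC24A1 (adjusted p = 0.0026) to 3.86 ± 1.15 for GNGT1 (adjusted p = 0.024), and CNGA1 was not called (2.95 ± 1.10, adjusted p = 0.070). Without the same fovea library 2 were called, CNGB1 and SLC24A1. With the eye as a block 5 were called and PDE6A was lost (adjusted p = 0.061, between 0.015 and 0.67 over the alternatives). The change from fovea to nasal location gave 3 of 7 called, CNGB1 (2.24 ± 0.59), GNGT1 (3.18 ± 1.14) and SLC24A1 (1.75 ± 0.51), against 12.5% of all genes. Without that fovea library 1 was called, CNGB1. With the eye as a block the call of GNGT1 was lost (adjusted p = 0.078, between 0.021 and 0.75 over the alternatives).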

How the data were processed

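The authors quantified the reads of each sequencing lane against Mmul_8.0.1 with Salmon 0.13 and summed transcripts to genes with tximport. The deposited column of the 136 lane files (19432 entries each) is labelled TPM. Its lane totals of 7932258 to 39439053 are too large for plain TPM, and the methods name length-scaled TPM from tximport, so the deposited values were read as length-scaled estimated counts. Every CPM and test rests on this reading. Symbols came from orthology predictions. RNA integrity numbers were above 6.5.

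The 10 entries that repeat a gene identifier were dropped, each library's lanes were added up and rounded to whole numbers, and CPM used the library total. Depth was 42448891 to 78574034 estimated counts per library. Tests used edgeR 4.0.16 (R 4.3.3, TMM, filterByExpr with min.count 10) adjusting for the monkey, in a fit per tissue with all 4 locations, or of all 32 libraries for tissue contrasts. Ratios used a prior count of 2 and exact permutation tests (Python 3.11.15, scipy 1.17.1). Scripts were tested on simulated data.

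The replicate numbers pair samples because a number is the same eye in every group. After location means were removed, libraries of an eye correlated on average by 0.55 to 0.70 in retina and 0.43 to 0.61 in RPE/choroid. These values fell to between -0.14 and 0.12 once monkey means were removed too.

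The members and lists were chosen with earlier results of these data known. The text names the 7 members, the cone relatives used in ratios, from each other list at most 4 genes (the 2 most positive and the 2 most negative fovea to periphery differences in retina) and the 10 genes closest to the members' mean. Outside this rule, CNGB3, SLC32A1 and TRPM1 are named for their RPE/choroid levels, after these were seen. PRPH2, ROM1, RD3 and RDH5 were not analysed here, and IMPG1 was left out because 2 entries carry it. Gene sequences, lengths and coordinates were not used here. Alternatives were DESeq2 1.42.0, RLE normalization, no filter, a minimum of 10 counts per library, a block for the eye, a model without the monkey, fits of only the compared locations, no nasal libraries, 2 lanes per library, a prior count of 0.25, leaving out each eye and, chosen after seeing the data, leaving out each of 3 RPE/choroid libraries.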

Additional observations from a re-analysis of the deposited data

Results flagged for a closer look

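Within groups of 4 eyes, 7 of 92 groups examined held a value that stood far from the other 3 by Dixon's test, which chance gives in about 1 in 20 groups. In RPE/choroid, the fovea library of RM04 OD stood above the other 3 eyes for PDE6A (75.5 CPM), CNGA1 (15.5 CPM), SAG (149.8 CPM) and GNGT1 (48.5 CPM). At the perimacula of RPE/choroid, RM03 OD stood above the others for PDE6B (9.17 CPM). In retina, both outlying values came from the perimacula of RM04, with CNGB1 high in the right eye (1388 CPM) and the log2 ratio of CNGB1 over CNGB3 low in the left eye (3.46).

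The change with location differed between retina and RPE/choroid by the interaction test in 11 cases, always more positive in retina. These were 2, 6 and 3 of the 7 genes from the fovea to the periphery, perimacula and nasal location. Of all genes, 24.5%, 8.14% and 12.5% were called in that direction, and the 2 of 7 stand near their share. The comparisons share the foveal libraries, so the cases are not independent. From the fovea to the periphery the log2 differences between the tissues were 1.65 for CNGB1 and 1.90 for SLC24A1. For the perimacula they were 3.17 for PDE6A, 2.90 for PDE6B, 2.53 for CNGB1, 3.30 for SAG, 3.86 for GNGT1 and 2.37 for SLC24A1. For the nasal location they were 2.24 for CNGB1, 3.18 for GNGT1 and 1.75 for SLC24A1. All 11 comparisons include the RPE/choroid fovea library of RM04 OD, and 0 of the 11 calls held without that eye in both tissues.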

How the results depend on the processing

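With 2 animals and 4 eyes the smallest permutation p is 0.0286, or 0.1 with 3 eyes against 3 and 0.125 for sign flips of 4 paired eyes, so leaving out an eye and pairing could not pass a threshold for the ratios and their values alone were compared. All 189 alternative ratio values moved by less than the spread over eyes. All 357 alternative values of the members between retina and RPE/choroid kept direction and call, and so did every retina comparison with the fovea.

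In retina, members called from the nasal location to the periphery were 3 to 5 when an eye was left out, against 5. Their log2 differences crossed 0 for SLC24A1 (0.013 with 2 lanes per library, 0.022 with at least 10 counts in every library, -0.12 to 0.034 without an eye) and PDE6A (-0.021 to 0.15 without an eye). In RPE/choroid, members called from the fovea to the periphery were 2 with DESeq2, 5 without the fovea library of RM04 OD and 0 to 5 without an eye. SLC24A1 was 0.31 without that library and -0.78 to 0.60 without an eye, and CNGB1 was -0.05 without the periphery library of RM03 OD and -0.16 to 1.51 without an eye. From the perimacula to the periphery 3 were called without the nasal libraries, 0 and 3 without the periphery library of RM03 OD and of RM04 OS, and 0 to 5 without an eye. Nasal against periphery, 2 were called with 2 lanes per library, 3 with DESeq2, 2 with at least 10 counts in every library, 0 with the eye as a replicate block, 3 with the compared locations alone, 0 without either of those periphery libraries and 0 to 4 without an eye. Perimacula against nasal, 1 was called with the compared locations alone. The interactions from the fovea to the periphery, perimacula and nasal location gave 1, 2 and 1 called without the RPE/choroid fovea library of RM04 OD, 1 and 2 (periphery and perimacula) with the compared locations alone, 5 (nasal) with DESeq2, and 0 to 2, 0 to 6 and 0 to 6 without an eye, the 0 arising in all 3 without RM04 OD. The cause was not tested. The block of eyes changed 4 calls of members, PDE6A and SAG in RPE/choroid and PDE6A and GNGT1 between tissues, and no other. Over the members' log2 differences, 1160 alternative values kept direction and side of the threshold, 74 lost a call, 16 gained a call and 10 crossed 0.

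Counts over all genes moved by over 1.5 times in 6 comparisons. Retina perimacula against nasal had 231, and 149 with 2 lanes per library, 785 with DESeq2, 29 with no covariate and 14 to 66 without an eye. In RPE/choroid, fovea against perimacula had 22, and 406 with DESeq2, 0 with the block, 0 with no covariate, 357 with the compared locations alone, 7 without the nasal libraries, 0 without the fovea library of RM04 OD and 0 to 7 without an eye. Fovea against nasal had 57, and 490, 30 and 4 with DESeq2, the block and no covariate, 346 with the compared locations alone, 26 without that library and 0 to 10 without an eye. Perimacula against nasal had 484, and 1247, 269, 53 and 1677 in the same order, and 19 to 195 without an eye. The interactions had 2494 at the perimacula, with 1641 under no covariate and 867 to 1890 without an eye, and 3853 at the nasal location, with 2510 to 3133 without an eye.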
